A study of Saccharomyces cerevisiae with 7 samples.

Results

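KAP123 and NTF2, which encode proteins of transport between cytoplasm and nucleus, are 2 of the 337 budding yeast genes for which a readthrough index (RTI) was deposited. They were picked by name, with earlier RTI results of these same libraries in view. Their differences between strains are therefore described without a test of their own. The RTI divides the GRO-seq reads found 50 to 500 nt downstream of a gene's annotated poly(A) site by those found in the mirror window upstream of it. GRO-seq sequences RNA that engaged polymerases extend in a run-on reaction with BrUTP, so an RTI near 0 means little transcription past the poly(A) site. All libraries came from BY4733, a laboratory strain of S. cerevisiae that carries his3Δ200, leu2Δ0, met15Δ0, trp1Δ63 and ura3Δ0. The mutant also carries sua7-1, an allele of the TFIIB gene with a glutamic acid to lysine substitution, and the wild type (WT) carries normal TFIIB. Cells of both strains grew in YPD at 30 °C to an A600 of 0.8 and underwent a run-on of 5 min. There are 3 sua7-1 libraries, with the replicate numbers 2, 3 and 4, and 4 WT libraries, numbered 1 to 4. The paper describes 3 biological replicates of each strain, but the sources used here do not say which 3 of the 4 WT libraries these are. The p-values given for other genes therefore reflect only how these libraries vary, and for WT part of that variation may be technical. An RTI was listed for 314 to 337 genes in 6 libraries and for 38 genes in WT replicate 4, which has no value for KAP123 or NTF2. The comparison thus rests on 3 sua7-1 and 3 WT values for each gene. The read numbers behind the ratios were not among the values analysed, so the depth is unknown and the RTI values carry no counting interval.

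Proteins enter and leave the nucleus through pore complexes with the help of karyopherins, which bind cargo on one side of the envelope and release it on the other. The direction is set by the small GTPase Ran, called Gsp1 in yeast, which is bound to GTP in the nucleus and to GDP in the cytoplasm. Kap123 is an abundant karyopherin of the beta family that imports ribosomal proteins and the histones H3 and H4. Ntf2 is a small protein that binds Ran in its GDP form and carries it back into the nucleus, and it is essential for growth. TFIIB itself acts at promoters, where it recruits RNA polymerase II to the assembled factors. In yeast, termination of mRNA genes is coupled to cleavage and polyadenylation of the transcript. An element rich in alternating U and A upstream of the cleavage site is a common part of the signal.

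Both genes lie on chromosome V of R64, in coding sequences without an intron. KAP123 (YER110C) spans 378762 to 382103 on the minus strand, which makes it the 9th longest of the 331 measured genes matched to the annotation, with a coding sequence of 3342 nt. NTF2 (YER009W) spans 172115 to 172492 on the plus strand and is short, with 378 nt. The median coding span of the matched genes was 1029 nt. The stop codon is the landmark for the distances given here, because the mRNA 3' ends that set the RTI windows were not used. The last 45 coding bases of each gene are shown on its own strand, with the stop codon in capitals, at chrV:378762-378806 for KAP123 and chrV:172448-172492 for NTF2 (sequences from the RefSeq genome, build R64).
KAP123: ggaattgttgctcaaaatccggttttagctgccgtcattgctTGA
NTF2: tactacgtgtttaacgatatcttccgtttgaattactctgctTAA

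The letters TATATA, the DNA form of UAUAUA, the best known version of that element, were found after both stop codons. The search covered the 300 bases after the stop codon on the gene's strand, in which overlapping matches were joined. KAP123 has a single match, at bases 49 to 54 after the stop codon. NTF2 has 6 overlapping matches that form a run of 16 bases, at bases 108 to 123. The sites are shown because elements of this kind precede the cleavage site, with the matched letters in capitals, at chrV:378696-378725 on the minus strand and chrV:172593-172622 on the plus strand.
KAP123: ataaacagcgctTATATAagtataccttcc
NTF2: aagaagaTATATATATATATATAtgtatga
TATATA occurs in this window in 214 of the 331 matched genes (64.7%) and in 55.3% of 6002 protein-coding genes of R64, so a match is common. A joined run of 16 bases or more occurs in 15 of the 331 genes (4.53%). TACATA and AATAAA have no match after either gene, against 30.2% and 46.2% of the matched genes. AAAAAA has 1 match after KAP123, at base 92, and none after NTF2, against 57.7%. A match is a description of the letters and not evidence of a site in use.

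The surroundings of the stop codons differ. After KAP123 the next gene on the same strand is FLO8, annotated as a pseudogene in this strain, 1147 nt away, and no gene of the opposite strand begins or ends within 5527 nt. After NTF2 the convergent gene YER010C ends 141 nt from the stop codon on the opposite strand, and the next gene on the same strand, TIR1, a cell wall protein gene, follows after 2755 nt. A gene of the opposite strand lies within 500 nt for 220 of the 331 matched genes (66.5%), so NTF2 has the commoner arrangement. Polymerases that pass the NTF2 terminator would transcribe the strand opposite to YER010C, while the 1147 nt after KAP123 hold no annotated gene on either strand. The 300 bases after the stop codon have a GC content of 36.3% for KAP123, higher than in 299 of the 331 genes, and of 30.7% for NTF2, near the median of 30.0%. A stretch of the readthrough region, bases 351 to 450 after the stop codon, is shown for each gene at chrV:378312-378411 (minus strand) and chrV:172843-172942 (plus strand). It falls within the downstream window if the mRNA ends no more than 300 nt after the stop codon.
KAP123: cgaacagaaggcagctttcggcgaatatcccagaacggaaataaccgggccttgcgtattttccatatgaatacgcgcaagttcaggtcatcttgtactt
NTF2: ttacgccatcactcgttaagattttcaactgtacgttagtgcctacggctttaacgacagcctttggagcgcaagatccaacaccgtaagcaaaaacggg
Both stretches have a GC content of 47.0%, and that of NTF2 runs antisense to the coding sequence of YER010C.

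**Figure D1:**
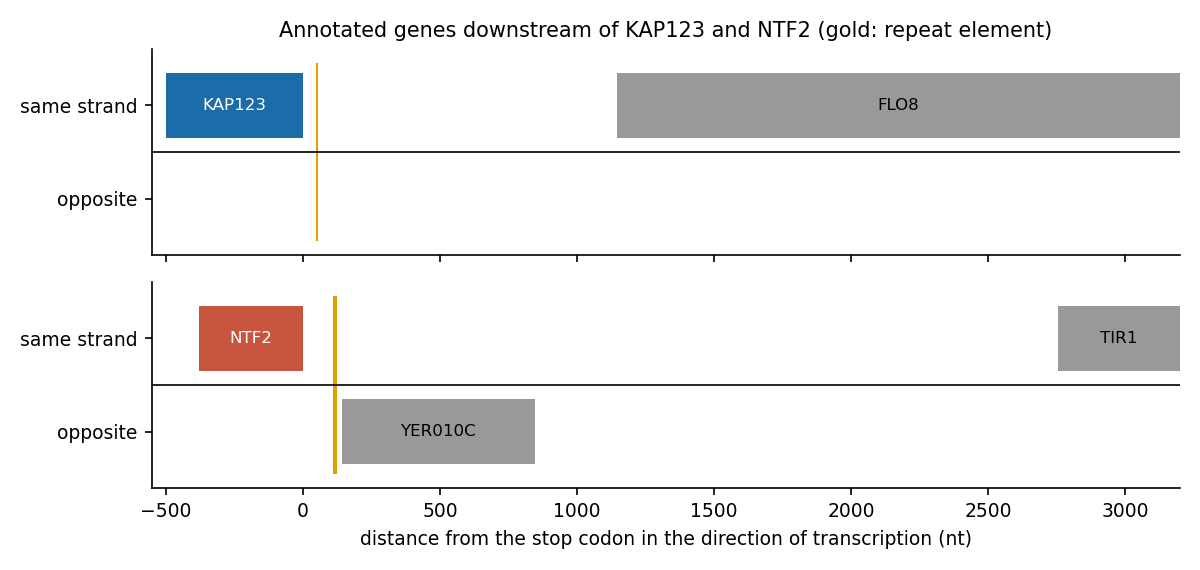
Maps of the regions after KAP123 (upper) and NTF2 (lower), by distance from the stop codon in nt along the direction of transcription. Coloured bars are the coding sequences (for KAP123 the last 500 nt), grey bars the annotated genes of each strand, cut at 3200 nt, and gold lines the TATATA matches at bases 49 to 54 and 108 to 123. FLO8 begins 1147 nt after KAP123, and YER010C ends 141 nt after NTF2.

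The karyopherin gene had downstream reads in every library that lists it, of either strain. The RTI of KAP123 reached 0.0318 in sua7-1 replicate 2, then 0.0975 and 0.0856 in the mutant replicates 3 and 4, that is 3.18, 9.75 and 8.56 reads downstream per 100 upstream. In WT it was 0.0164 in replicate 1, 0.000568 in replicate 2 and 0.00357 in replicate 3, that is 1.64, 0.0568 and 0.357 reads per 100. The strains did not overlap, but they came close, since the lowest mutant value, in replicate 2, was 1.94 times the highest WT value, in replicate 1. The WT values themselves spanned 28.8-fold, and the mutant values 3.06-fold. The mean RTI of KAP123 was 0.0716 ± 0.0350 (SD, n = 3) for sua7-1. The WT mean was 0.00683 ± 0.00838 (SD, n = 3), and the mutant mean was 10.5 times as high. Without WT replicate 1 that ratio was 34.6.

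NTF2, the Ran carrier gene, showed the same order of strains with a far wider gap. Its mutant values were 0.0579 in replicate 2, 0.0767 in replicate 3 and 0.0742 in replicate 4, between 5.79 and 7.67 downstream reads per 100 upstream. WT replicate 1 listed 0.00262, replicate 2 0.000521 and replicate 3 0.000900, between 0.0521 and 0.262 reads per 100. The lowest mutant value was 22.1 times the highest WT value. In the mutant the libraries of NTF2 lay within 1.33-fold of each other, and in WT within 5.03-fold. The mean RTI of NTF2 was 0.0696 ± 0.0102 (SD, n = 3) for sua7-1. Its WT mean was 0.00135 ± 0.00112 (SD, n = 3), and the mutant mean was 51.6 times as high. For NTF2 too the ratio moved most without WT replicate 1, to 97.9.

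**Figure D2:**
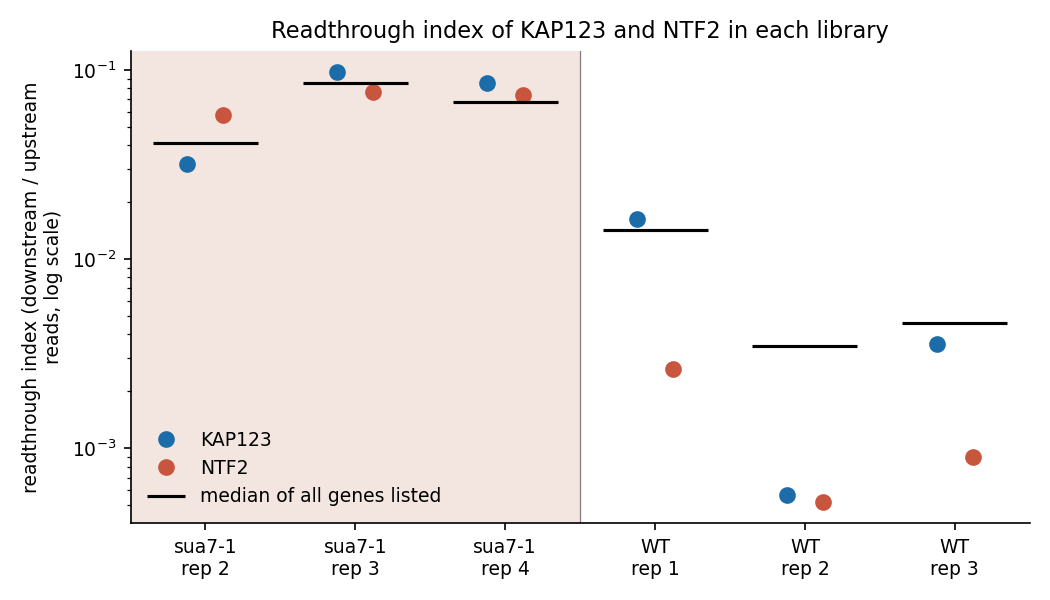
RTI of KAP123 (blue) and NTF2 (red) in each of the 6 libraries that list them, on a log axis, with the median of all genes listed in that library as a black line. Mutant libraries are shaded. The mutant values of both genes lie between 0.0318 and 0.0975, and the WT values between 0.000521 and 0.0164, with KAP123 in WT replicate 1 the highest of them.

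Set side by side, the genes had nearly the same mean RTI in the mutant, 0.0716 and 0.0696, and differed in WT. The upstream window reaches back 500 nt, more than the 378 nt coding sequence of NTF2 and a small part of the 3342 nt of KAP123. The levels compared thus rest on unlike parts of a gene. KAP123 was the higher of them in all 3 WT libraries, by 1.09-fold to 6.23-fold. In the mutant it was the higher in 2 of 3 libraries, with KAP123 to NTF2 ratios from 0.550 to 1.27. On the log2(RTI + 0.002) scale the difference between strains was 3.38 (standard error 0.73) for KAP123 and 4.46 (standard error 0.49) for NTF2, from a limma fit over all genes. The difference between these values was 1.08 on the log2 scale and was not tested. All WT values of NTF2 but that of replicate 1 lie below the pseudocount of 0.002, as does that of KAP123 in WT replicate 2. This scale therefore understates both changes. With a pseudocount of 0.0005 the differences were 3.95 for KAP123 and 5.40 for NTF2. The log2 ratios of the strain means, taken without a pseudocount, were 3.39 for KAP123 and 5.69 for NTF2. They follow the highest libraries most, for KAP123 WT replicate 1, so they do not show what the pseudocount alone does. Among the 337 genes NTF2 had the 11th largest and KAP123 the 71st largest log2 difference, and the median over all genes was 2.44.

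Both genes passed the call applied to every gene, which asked for more than a 2-fold difference on the log2(RTI + 0.002) scale and for an adjusted p of less than 0.05 (limma, Benjamini-Hochberg). So did 75.1% of the 337 genes as higher in the mutant, and 0.89% passed as lower. Both also had every listed mutant library above every listed WT library, as did 78.3% of all genes, while 2.67% had the opposite order. Since the genes were chosen with this contrast known and most genes behaved alike, nothing is read from these counts.

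The libraries also differed as wholes, and the place of each gene within its library gives a view that such shifts do not touch. This view also removes any change that most genes of a strain share. Such a change and a shift between libraries cannot be told apart here. The median RTI over all listed genes was 0.0414 to 0.0850 in the mutant libraries and 0.00349 to 0.0142 in WT replicates 1 to 3, the highest of these in WT replicate 1. In the mutant both genes stood in the middle of the distribution. KAP123 had a higher RTI than 45.9%, 54.2% and 57.6% of the genes in sua7-1 replicates 2, 3 and 4, and NTF2 than 58.0%, 47.4% and 53.4%. In WT, NTF2 stood low in every library that lists it, above 14.5%, 15.9% and 17.9% of the genes in replicates 1, 2 and 3. KAP123 did not keep such a place, since it lay above 55.7% of the genes in WT replicate 1, 17.1% in replicate 2 and 43.5% in replicate 3.

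**Figure D3:**
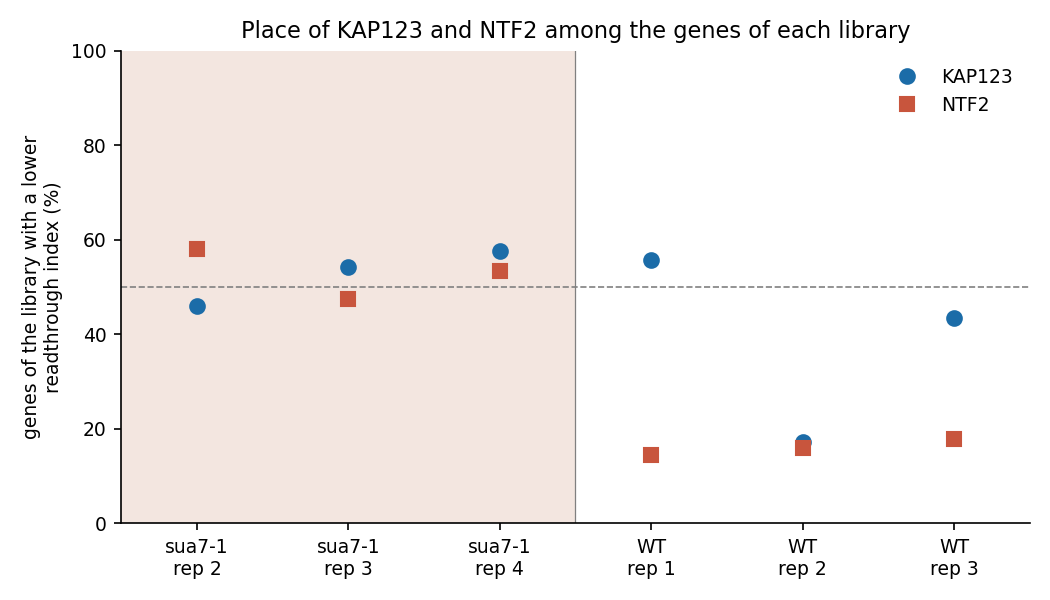
Share of the genes of each library with a lower RTI than KAP123 (blue circles) or NTF2 (red squares), in percent. The dashed line marks 50% and the shading the mutant libraries. NTF2 lies at 14.5% to 17.9% in WT and 47.4% to 58.0% in the mutant, while KAP123 lies between 43.5% and 57.6% in all libraries but WT replicate 2, where it is at 17.1%.

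Divided by the median of its library, NTF2 stood at 1.40, 0.902 and 1.09 times that median in the mutant (replicates 2, 3 and 4). In WT (replicates 1, 2 and 3) it stood at 0.185, 0.149 and 0.196 times. The WT values on this relative scale were 0.177 ± 0.0243 (SD, n = 3), much closer to each other than the RTI itself. For KAP123 the relative values for sua7-1 were 0.769, 1.15 and 1.26, against 1.15, 0.163 and 0.778 for WT, and here the strains overlapped. With every library divided by its median RTI, the log2 difference between strains was 2.31 for NTF2 and 0.85 for KAP123, against a median over all genes of -0.20. Under that scaling 22 genes passed the call as higher, NTF2 among them but not KAP123, and 52 as lower, in place of 253 and 3. The scaling takes out a change common to most genes too, so these counts are relative to the typical gene.

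On the RTI scale, the replicate spread of NTF2 in the mutant was small for these data. Its coefficient of variation over the sua7-1 libraries was 14.7%, and only 14 of 302 genes with 3 mutant values had a lower one. The median over those genes was 40.7%. KAP123 had 48.9%, with 194 genes lower. Relative to the library medians this contrast was nearly absent. There the mutant values were 1.13 ± 0.251 (SD, n = 3) for NTF2 and 1.06 ± 0.257 (SD, n = 3) for KAP123. In WT the coefficient of variation was 83.1% for NTF2 and 123% for KAP123, against a median of 78.2% over 317 genes, and 293 of these had a lower one than KAP123. By strain means, KAP123 ranked 161st and NTF2 163rd from the highest in the mutant. In WT, 152 genes had a lower mean than KAP123 and 46 a lower mean than NTF2.

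**Figure D4:**
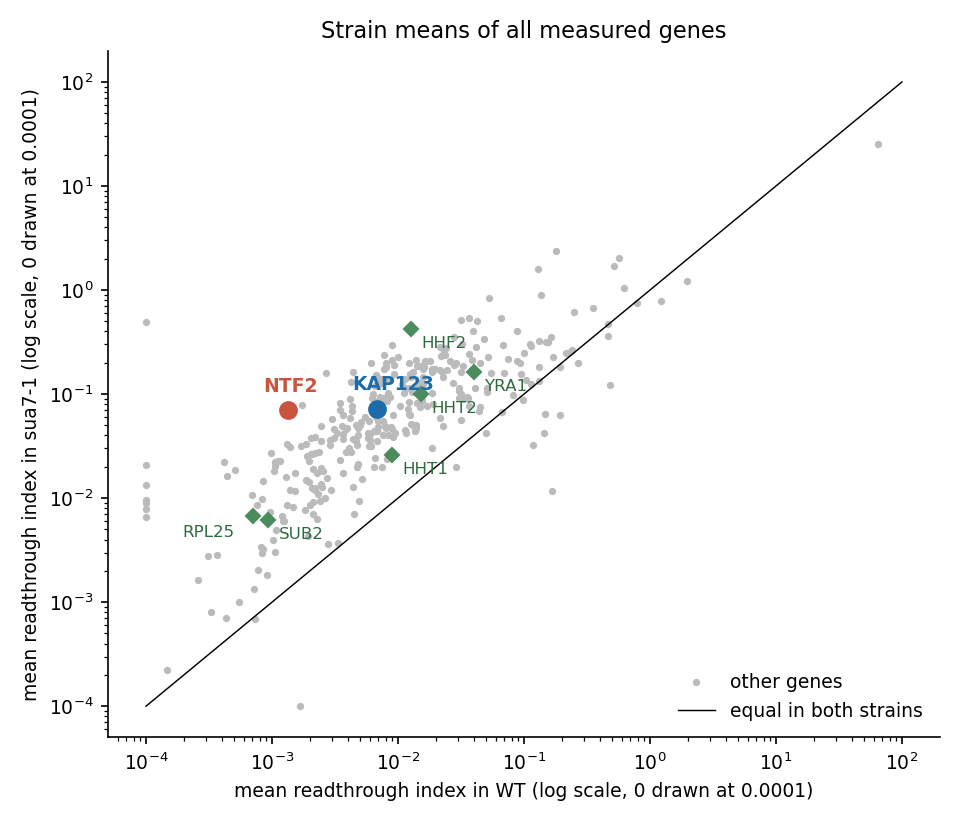
Mean RTI of each of the 337 genes in WT (x axis) and in sua7-1 (y axis), both on log axes with means of 0 drawn at 0.0001. KAP123 (0.00683 and 0.0716) and NTF2 (0.00135 and 0.0696) are at nearly the same height, with NTF2 farther to the left, and green diamonds mark the other genes of the nuclear transport and cargo lists. The line marks equal values in both strains.

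Few other genes of nuclear transport were among the 337. Of 67 listed genes, 15 karyopherins, 9 genes of the Ran cycle, 33 nucleoporins and 10 genes of mRNA export, only KAP123, NTF2, YRA1 and SUB2 were measured. No nucleoporin was among them, nor GSP1, which encodes Ran. The other 2 had a median log2 difference of 1.54, against 2.44 over all genes, and 1 of them passed the test as higher and none as lower, where 75.1% and 0.89% of all genes did. YRA1, whose product is an adaptor that joins mRNA to its export receptor, had mutant values of 0.135, 0.204 and 0.152, against 0.0591 in WT replicate 1 and 0.0213 in WT replicate 3. These groups did not overlap, and the log2 difference was 2.11 (standard error 0.62, adjusted p = 0.0099 from limma). That call rests on 2 WT libraries. Without WT replicate 3, which leaves a lone WT value, the log2 difference was 1.42. After division of the libraries by their medians the call was lost. There the log2 difference was -0.75, against a median over all genes of -0.20. SUB2, an RNA helicase of the complex that loads export factors on mRNA, was listed in sua7-1 at 0.00248, 0 and 0.0158, against 0.00245, 0, 0 and 0.00129 for the 4 WT libraries. Its strains overlapped, with a log2 difference of 0.97 (standard error 0.67, adjusted p = 0.20 from limma). It passed the call only without sua7-1 replicate 3 (adjusted p = 0.044 from limma) and with the replicate number as a block (adjusted p = 0.043 from limma).

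Of 5 listed genes that encode cargoes of Kap123, 4 were measured, and each passed the test as higher in the mutant, with a median log2 difference of 2.55. The share called higher over all genes was 75.1% and the median 2.44. RPL25, a ribosomal protein gene and a classical cargo, had low RTI values throughout, with mutant values of 0.00195, 0.0116 and 0.00658, against 0.00109, 0.000485 and 0.000537 for WT replicates 1 to 3, and no overlap. Its log2 difference was 1.52 (standard error 0.56, adjusted p = 0.026 from limma). The call for RPL25 was lost without sua7-1 replicate 3 (adjusted p = 0.11), without sua7-1 replicate 4 (0.093), without WT replicate 2 (0.060), without WT replicate 3 (0.078) or with a pseudocount of 0.01 (0.105, all from limma). After division by library medians the log2 difference of RPL25 was -0.18, near the median over all genes of -0.20 under that scaling. The histone H3 genes HHT1 and HHT2 differed from each other in level. HHT2 had mutant values of 0.0532, 0.164 and 0.0846, against WT values of 0.0325, 0.0101 and 0.00323, without overlap. Its log2 difference was 2.84 (adjusted p = 0.0039 from limma), and -0.20 after division by library medians, again near that median. HHT1 had mutant values of 0.0243, 0.0221 and 0.0316, against WT values of 0.0256, 0 and 0.00149, with overlap through WT replicate 1. The call for HHT1 (adjusted p = 0.026 from limma) was lost without sua7-1 replicate 2 or 3, without WT replicate 2 or 3, with a pseudocount of 0.01 and with zeros taken as missing (adjusted p from 0.051 to 0.097), and after division by library medians (adjusted p = 0.78). HHF2, a histone H4 gene, had 0.515 and 0.333 as its only mutant values (replicates 3 and 4), against WT values of 0.0224, 0.00723 and 0.00872. Its log2 difference was 4.96 (adjusted p = 0.000205 from limma), and of the 4 cargo genes it alone passed after division by library medians (1.54, adjusted p = 0.025). The histone genes exist in similar copies, and whether these share reads was not tested.

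Of the 6 genes for which the study ran single-gene run-on assays, KAP123 alone is among the 337. For KAP123 the paper reports no difference between the strains in run-on signal upstream of the poly(A) site. Downstream of that site it reports a strong increase in the mutant. By chromatin immunoprecipitation, the paper also reports a large drop of termination factors at the end of KAP123 in the mutant. BLM10, HEM3, SEN1, CBK1 and SUR1 have no RTI in the values analysed.

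The genes with RTI patterns most like those of KAP123 and NTF2 came from several functions. Likeness was taken as the root mean square difference of log2(RTI + 0.002) over the 6 libraries that list both genes, which 285 genes allowed. The nearest gene to KAP123 was STM1, which encodes a protein bound to inactive ribosomes, at a difference of 0.31. Its mutant values were 0.0398, 0.104 and 0.0863, against 0.0132, 0.00197 and 0.00409 for WT replicates 1 to 3. Next were FRS2, a subunit of phenylalanyl-tRNA synthetase (0.39), SAH1, which breaks down S-adenosylhomocysteine (0.40), OST3, a subunit of the oligosaccharyltransferase (0.40), and SEC61, the channel of the endoplasmic reticulum translocon (0.46). In all 5 of them, as in KAP123, WT replicate 1 was the highest WT library and WT replicate 2 the lowest. The genes were picked for likeness over these libraries, and the medians over all listed genes had that order too (0.0142, 0.00349 and 0.00459 in WT replicates 1 to 3).

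The nearest gene to NTF2 was ERG25, a sterol oxidase gene, at a difference of 0.38. Its mutant values were 0.0389, 0.116 and 0.0826, against 0.00392, 0.000735 and 0.000548 for WT replicates 1 to 3. CIT1, mitochondrial citrate synthase (0.56), SBH1, a small subunit of the translocon (0.56), RHO1, a GTPase of cell wall synthesis (0.61), and NOP10, a component of small nucleolar ribonucleoproteins (0.66), followed at larger distances. From each other the members were 0.97 apart, which made NTF2 the 71st nearest gene to KAP123 and KAP123 the 34th nearest to NTF2. All points share the same 6 libraries, and the nearest genes changed with the measure: by Pearson correlation none of the 5 was kept for either gene.

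**Figure D5:**
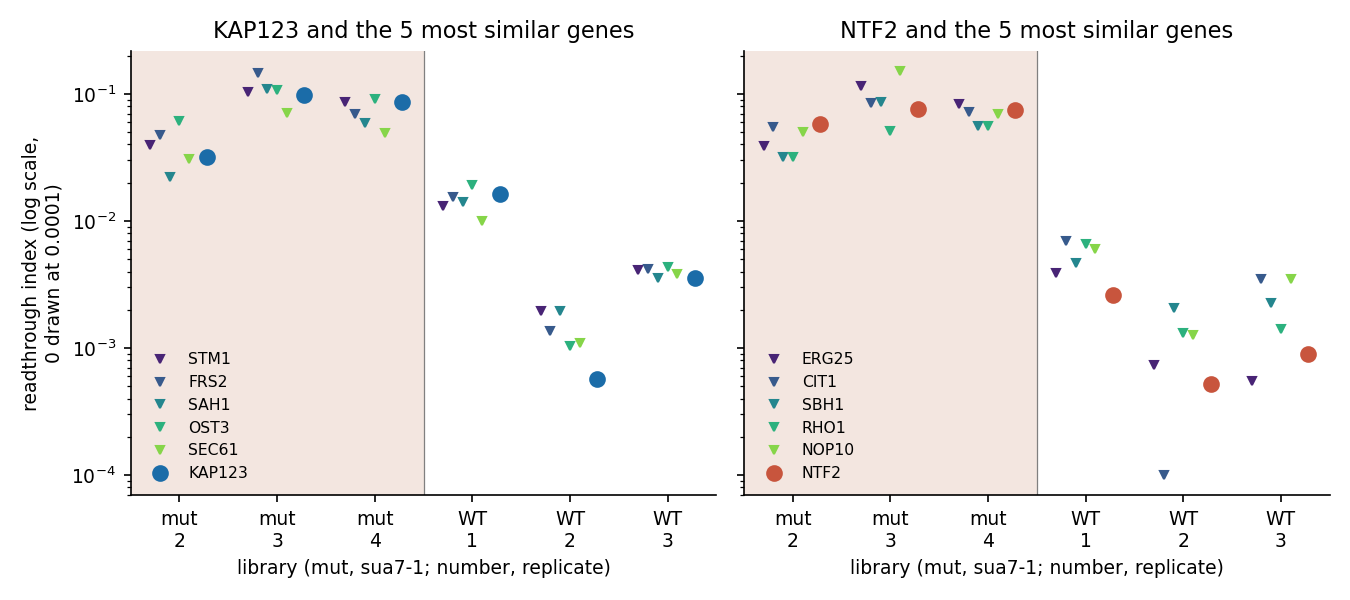
RTI of KAP123 (left) and NTF2 (right) with the 5 genes of most similar pattern, in each of 6 libraries, on a log axis with an RTI of 0 drawn at 0.0001. Mutant libraries are shaded and points are shifted sideways to be seen. In WT replicate 2 KAP123, at 0.000568, is the lowest of its set, and in WT replicate 1 NTF2, at 0.00262, is the lowest of its set.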

How the data were processed

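GRO-seq data of 3 sua7-1 and 4 WT libraries were analysed as deposited. Adapters had been removed with cutadapt, and 3' end reads placed on the S288C genome, build R64, with an aligner not given in the sources used here. The authors kept mRNAs of at least 500 nt, with at least 1 read per nt and at least 500 nt to the next gene on the same strand, and genes with a value in at least 5 libraries. In R64, 28 of the matched genes, but neither KAP123 nor NTF2, have their next gene on that strand closer than 500 nt to the stop codon. Per gene and library the authors deposited a ratio, the RTI, which is not scaled between libraries. The deposited table also holds strain means, log2 ratios and p-values of the authors' own comparison, which were not used, and a second part whose rows, apart from 2, repeat the main one (NTF2 among them) and were left out.

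The strains were compared over all 337 genes by limma (3.58.1, R 4.3.3), fitted to log2(RTI + 0.002) with no term but strain, in place of the study's 1-sided t-test per gene. The limma step was tested on simulated data. Other values came from Python 3.11.15. Gene names and positions came from RefSeq R64, which matched 331 genes by systematic name. The members, gene lists and tests were chosen with earlier results of these data known. Genes named are KAP123, NTF2, measured genes of the lists, the 5 nearest genes to each and annotated downstream neighbours. Alternatives were other pseudocounts, a filter on low ratios, zeros as missing, a robust and trended limma fit, libraries divided by their median, a replicate block, ratios of means and each library left out. No library pair held equal values above 0.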

Additional observations from a re-analysis of the deposited data

How the results depend on the processing

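Both log2 differences stayed positive under every alternative. With each library left out in turn, KAP123 ranged from 2.72 (without WT replicate 2) to 4.14 (without WT replicate 1), NTF2 from 4.28 to 4.72, and their difference from 0.58 to 1.56. The ratio of strain means, left out likewise in a check chosen after seeing the data, ranged from 7.19 to 34.6 for KAP123 and from 39.5 to 97.9 for NTF2, lowest without WT replicate 2 and highest without WT replicate 1. With pseudocounts of 0.0005 and 0.01, KAP123 was at 3.95 and 2.28, and NTF2 moved to 5.40 and 2.81. As a log2 ratio of means, KAP123 was at 3.39 and NTF2 moved to 5.69. With each library divided by its median, KAP123 moved to 0.85 and lost its call, while NTF2 moved to 2.31 and kept it. Under that scaling 22 genes were called higher, 52 lower and 1 nuclear transport gene, NTF2, higher. With a pseudocount of 0.01, 5 genes were called lower in place of 3. Leaving out libraries gave 213 to 277 genes called higher, 2 to 4 called lower, and 2 to 4 nuclear transport genes called higher and 0 lower. Across genes, the deviations of same-numbered libraries from their strain means correlated at 0.13, -0.02 and -0.03, the last over 38 genes. Pairs with unlike numbers ranged from -0.20 to 0.22. A correlation across genes does not see a shift common to all genes, so whether same-numbered libraries share a batch was not tested. With the replicate block, KAP123 was at 3.94, NTF2 at 4.67, and 240 genes were called higher and 3 lower. The count of nuclear transport genes stayed at 3, with SUB2 in place of YRA1, which could not be fitted. Of the 5 nearest genes, 2 to 5 were kept for either gene when a library was left out. In a window of 200 bases TATATA occurred in 53.5% of matched genes. The cause of these shifts was not tested. The depth behind the ratios is unknown, so no number of reads is given for an RTI near 0.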
